A study of Rattus norvegicus with 14 samples.

Results

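The goblet cell products other than mucins were followed in colonocytes of rats on 2 diets, with normal protein (NPD) or high protein (HPD). The genes were Tff3, Tff1, Spink4, Fcgbp, Zg16, Retnlb, Agr2, Galnt12 and Sytl2, and a gene was taken as measured when a non-control probe of the array carried its name. Of these 9 genes, 8 had a probe, 1 probe each, among 26276 gene names and 30367 probes in all, and no probe carried the name Sytl2, a Rab27 effector of granule release. The animals were male Wistar rats, 5 to 6 weeks old at the start. Protein gave 14% of dietary energy in the NPD and 55% in the HPD, the diets were isocaloric and were eaten for 15 days. Colonocytes were detached with EDTA from the colon, without its distal end, and total RNA of each rat was hybridised alone to a 1-colour Agilent array. The arrays of 7 NPD and 7 HPD rats are described, after the study had set aside 1 outlying array of each diet.

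Goblet cells are the secretory cells of the colonic epithelium that fill their apex with mucin granules and release them as mucus. Mucins form the gel, while smaller proteins are packed and released with them: trefoil peptides that bind mucus and aid the repair of the epithelium, lectins and resistin-like proteins that act on bacteria, and protease inhibitors. Other products stay inside the cell and build the mucins, as a disulfide isomerase of the endoplasmic reticulum and glycosyltransferases of the Golgi do. In bulk RNA of detached cells, fewer goblet cells and less RNA per goblet cell cannot be told apart.

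The probes of 4 genes were chosen to show what was hybridised, because the genes with the lowest p-values (Spink4 and Agr2) and the pair Tff3 and Fcgbp carry the results below. Each is a 60-base oligonucleotide given 5′ to 3′, placed by the array files on build rn4. Capitals mark TGT or TGC, the triplets for cysteine, in the reading frame without a stop codon. For Tff3, where 2 frames were open, the frame with the most of them was taken. Whether a probe lies in coding sequence was not checked against an annotation, so the marked triplets are not shown to be codons of the protein.
Tff3, chr20:9471911-9471970, minus strand, from base 160 of its transcript: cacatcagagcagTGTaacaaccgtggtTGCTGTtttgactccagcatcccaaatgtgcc
Spink4, chr5:58323932-58323991, plus strand, from base 121 of its transcript: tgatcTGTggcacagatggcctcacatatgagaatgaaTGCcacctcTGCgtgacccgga
Fcgbp, chr1:83211975-83212034, plus strand, from base 7176 of its transcript: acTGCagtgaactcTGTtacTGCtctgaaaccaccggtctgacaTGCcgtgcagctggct
Agr2, chr6:54709562-54710914, plus strand, from base 474 of its transcript: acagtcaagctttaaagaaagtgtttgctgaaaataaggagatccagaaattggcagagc
The probes of Tff3 and Spink4 hold 3 such triplets each, that of Fcgbp holds 4 and that of Agr2 holds 0. The 60 bases of the Agr2 probe map across 1353 bases of the genome, so it spans an intron. The remaining probes lie at chr20:9526690-9526749 (Tff1), chr1:186302262-186302479 (Zg16, across an intron), chr11:53227020-53227079 (Retnlb) and chr5:63737223-63737282 (Galnt12).

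Signals are given as log2 values relative to the median probe of the same array, which is 0, so a level is not compared between genes. The arrays lay on 2 slides, which were also 2 scans: slide 1 held 4 NPD and 3 HPD arrays, slide 2 held 3 NPD and 4 HPD arrays. Between 18839 and 20976 probes of an array were well above background, and arrays correlated with each other at 0.970 to 0.992 over all probes. Before centring, the median signal of an array was 113.5 to 179.3 in NPD and 89.66 to 129.5 in HPD rats. Centring takes this difference out, so every diet difference below is relative to the array median. The part of the lower HPD medians in those differences was not tested. All 8 probes of the goblet cell products were well above background on 14 of 14 arrays and saturated on 0. The 7 epithelial markers were well above background on all arrays, their summed linear signal lying between 4690 and 5700 times the array median in NPD and between 4440 and 6190 in HPD rats. The sum over 7 goblet markers (Muc2, Clca1, Atoh1, Spdef and the members Tff3, Fcgbp and Agr2) ran from 4920 to 7400 with a median of 5910 in NPD rats and from 3860 to 9730 with a median of 4490 in HPD rats. The HPD value of 9730 belonged to 1 rat, HPD 1, and the next highest HPD rat was at 4930. Sums of immune markers (6 genes) were 14.4 to 42.4 in NPD and 13.5 to 19.3 in HPD rats, and those of stromal and muscle markers (6 genes, with Pdgfra not above background on any array) were 9.66 to 24 and 8.52 to 20. Within these lists Col1a1 and Col3a1 were higher by 0.35 and 0.61 (exact permutation p = 0.00466 and 0.00641, limma adjusted p = 0.417 for both), with Col3a1 well above background on 1 array. Lyz2 differed by -0.56 (exact permutation p = 0.0530, limma adjusted p = 0.425) and was below the NPD mean in 7 of 7 HPD rats. These lists had no common direction. In the mean, 4 stromal and muscle genes were higher and 2 lower (Des by -0.56, Pecam1 by -0.25), and 2 immune genes were higher and 4 lower. Stem and cycling markers (4 of 5 genes on the array) summed to 32.5 to 42 in NPD and 21.6 to 48.4 in HPD rats, with medians of 38.3 and 28.9. Absorptive colonocyte sums were 2170 to 2900 and 2130 to 3890, enteroendocrine sums 545 to 1130 and 402 to 1330, tuft sums 5.22 to 12.5 and 4.34 to 12.2, and red blood cell sums (2 of 3 genes) 0.836 to 12.2 and 0.203 to 42.8. Among HPD rats HPD 1 had the lowest enteroendocrine and the highest tuft sum. Krt19 (-0.36, exact permutation p = 0.0181) and Top2a (-0.68, exact permutation p = 0.0390) were lower in the HPD. Slc26a3 was higher (0.33, exact permutation p = 0.0291). Their limma adjusted p lay between 0.417 and 0.438. In the mean, 3 epithelial markers were higher and 4 lower, and 2 stem and cycling markers were higher and 2 lower. All 7 absorptive and 2 red blood cell markers were higher, and all 3 tuft markers were lower. Of the goblet markers 3 were higher and 4 lower, and of the enteroendocrine markers 2 and 3. Beside these counts, 64.2% of all probes were higher in the mean. The part of these marker levels in the differences below was not tested. Because HPD 1 stood apart in goblet markers, the differences of the members are also shown without it. The goblet sum holds Tff3, Fcgbp and Agr2 themselves, and HPD 1 was the highest HPD rat for each. Leaving it out therefore lowers their HPD means by construction.

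Spink4 had the largest difference between the diets among the 8 genes, Tff1 was also higher in the mean of the HPD rats, and Agr2, Tff3 and Fcgbp were lower in the mean. In the fit used here none of the 8 genes passed the threshold of the study (limma, Benjamini-Hochberg adjusted p below 0.1 over all probes), which 0.056% of all 30367 probes did, all of them higher in the HPD. The study's own fit, whose signal column and centring statistic are not given, called far more genes, most of them lower in the HPD. The fit used here did not reproduce that yield. Spink4 passed the threshold in the study's fit and was higher in the HPD. At an unadjusted limma p under 0.05, 1 of the 8 was higher (Spink4; 5.86% of all probes) and 1 was lower (Agr2; 5.55% of all probes). The median difference over the 8 genes was -0.11, beside 0.11 over all probes. Leaving out HPD 1, a choice made after seeing the data, gave 1 higher and 3 lower genes at an unadjusted p under 0.05, namely Spink4 against Tff3, Fcgbp and Agr2, where 10.1% of all probes were higher and 9.42% lower. Still, 0 of the 8 genes and 0.497% of all probes were called. The 3 lower genes are also markers by which HPD 1 stood apart, so their count without it is no separate evidence.

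The calls of Spink4 and Agr2 depended on the processing. Both passed the limma threshold with normexp background correction, where 16.9% of all probes did, with the deposited table and slide as a block (10.5%), and without HPD 1 with slide as a block (5.4%). Neither did with slide as a block alone (0.0889%) or with replicate number as a block (0.0263%).

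**Figure D1:**
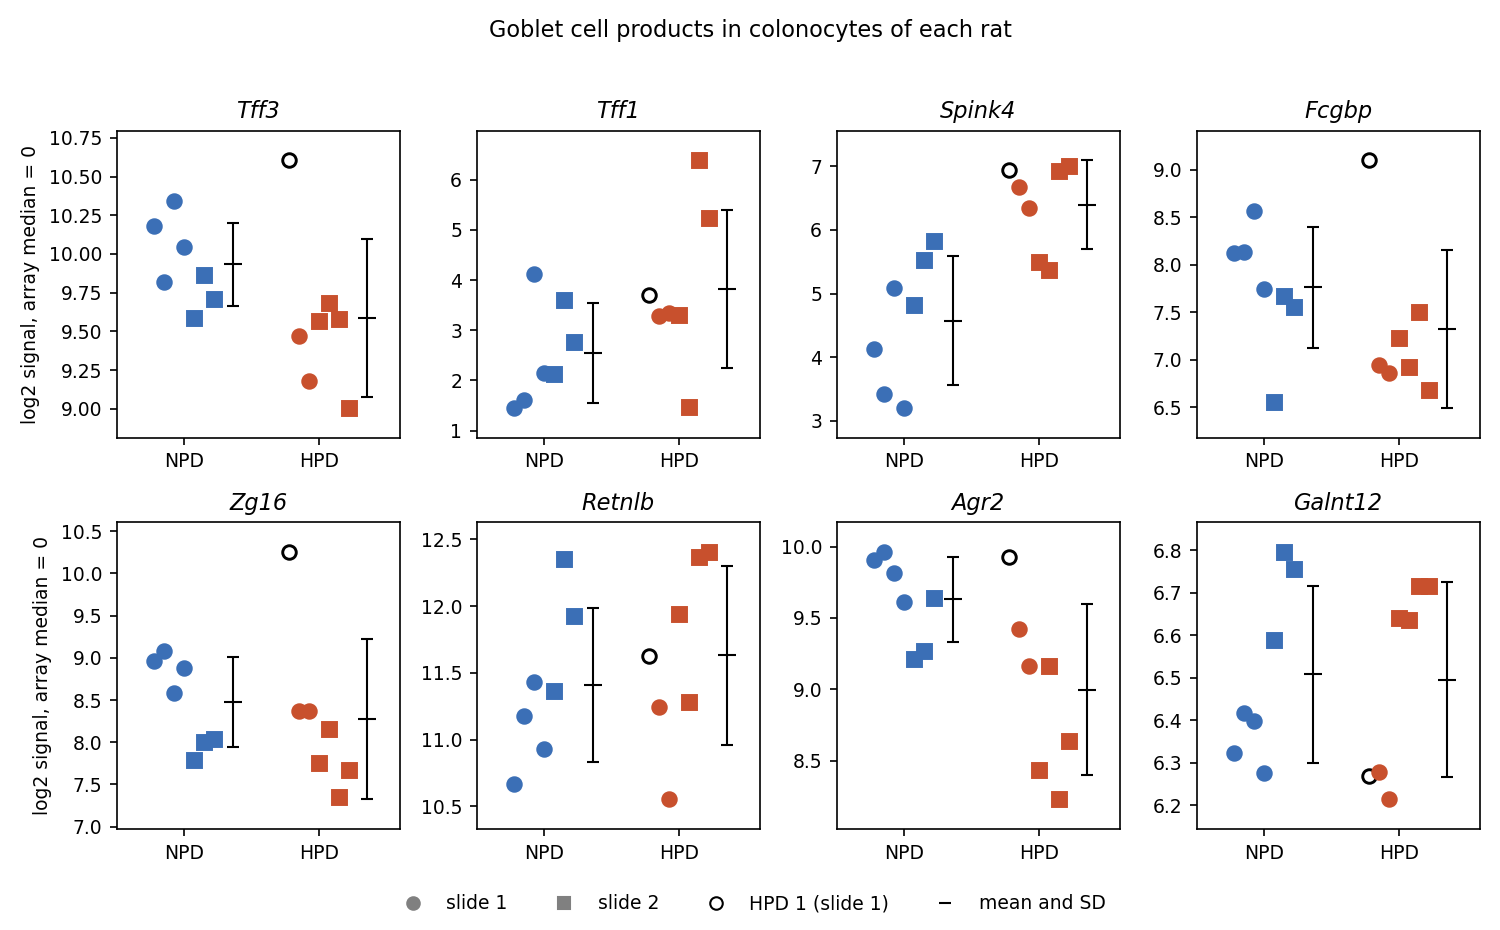
Level of each goblet cell product in every rat, as log2 signal relative to the array median, with circles for slide 1, squares for slide 2, an open black circle for HPD 1, and the mean with its SD at the right of each group (7 rats per diet). Spink4 lies above the highest NPD rat in 5 of 7 HPD rats, Agr2 lies below the lowest NPD rat in 5 of 7, and HPD 1 is the highest HPD rat for Tff3, Fcgbp, Zg16 and Agr2.

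Spink4 encodes a Kazal-type serine protease inhibitor secreted by goblet cells. Its level ran from 3.20 to 5.83 in NPD rats, with a median of 4.82, and from 5.36 to 7.01 in HPD rats, with a median of 6.68. All 7 HPD rats lay above the NPD mean and 5 of them above every NPD rat, and the groups overlapped only through HPD 4 and HPD 5. The difference was 1.82 (SE 0.42, n = 7 per diet), a 3.54-fold higher signal with a 95% confidence interval of 0.92 to 2.73 on the log2 scale. An exact two-sided permutation test over the 3432 splits of the rats gave p = 0.00408, and p = 0.00816 when rats were exchanged only within slides. Over all probes the p-value of Spink4 held rank 43, with a limma adjusted p of 0.417. On slide 1 the difference was 2.69 and on slide 2 it was 0.82. These slide differences were set against each other in limma, giving -1.87 (SE 0.71) with an unadjusted p of 0.0210 and an adjusted p of 1.00. Without HPD 1 the difference was 1.73 (SE 0.45, limma adjusted p = 0.111).

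The trefoil peptides did not share a direction. Tff3, the trefoil peptide of intestinal goblet cells, ran from 9.59 to 10.34 in NPD rats (median 9.86) and from 9.01 to 10.60 in HPD rats (median 9.57). The level was below every NPD rat in 5 of 7 HPD rats and above every NPD rat in HPD 1. The mean difference was -0.35 (SE 0.21, limma adjusted p = 0.495, exact permutation p = 0.138). Without HPD 1 it was -0.52, with an SE of 0.15 and a limma adjusted p of 0.130.

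Tff1, a trefoil peptide best known from the stomach, was the most variable member. NPD rats ran from 1.46 to 4.12 with a median of 2.15, and HPD rats from 1.48 to 6.38 with a median of 3.35. Only HPD 6 and HPD 7 exceeded the highest NPD rat, and HPD 5 lay beside the lowest. The difference was 1.27 (SE 0.64, 6 of 7 HPD rats above the NPD mean), with p = 0.0973 in the exact permutation test and a limma adjusted p of 0.448. It was similar on slide 1 (1.11), on slide 2 (1.27) and without HPD 1 (1.29). Without HPD 6 it was 0.85 (limma adjusted p = 0.651), without HPD 7 it was 1.04 and without HPD 5 it was 1.66. Tff2, another gastric-type trefoil peptide and no member here, ran from -2.87 to 1.29 in NPD rats (median -1.09) and from -1.21 to 5.18 in HPD rats (median 0.50), and was highest in HPD 6, as Tff1 was. The Tff2 difference was 2.25 (SE 0.88, limma adjusted p = 0.417, exact permutation p = 0.0402, within slides 0.0596).

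Fcgbp, a large mucus protein that associates with the Muc2 network, ran from 6.55 to 8.56 in NPD rats with a median of 7.74. In HPD rats it ran from 6.68 to 9.10 with a median of 6.95. Apart from HPD 1, the HPD rats lay at 7.51 or below, and 6 of 7 were below the NPD mean. The difference of -0.44 (SE 0.36, limma adjusted p = 0.556, exact permutation p = 0.286) became -0.74 (SE 0.26, limma adjusted p = 0.172) without HPD 1.

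Zg16 is a small lectin of mucus that binds the cell wall of Gram-positive bacteria. It ran from 7.79 to 9.08 in NPD rats (median 8.59) and from 7.35 to 10.25 in HPD rats (median 8.15). The rat HPD 1 lay at 10.25 and the others at 8.37 or below. The difference was -0.20 (SE 0.38, limma adjusted p = 0.792, exact permutation p = 0.658), and its sign differed between slides, being 0.12 on slide 1 and -0.21 on slide 2. Without HPD 1 it was -0.53 (SE 0.25, limma adjusted p = 0.261).

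Retnlb encodes resistin-like molecule β, a secreted antibacterial protein of goblet cells. NPD rats ran from 10.67 to 12.35 (median 11.36) and HPD rats from 10.55 to 12.40 (median 11.62), so the ranges nearly coincided. The difference was 0.22 (95% confidence interval -0.43 to 0.88, limma adjusted p = 0.722, exact permutation p = 0.508) and it turned sign under quantile normalization, where it was -0.079.

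Agr2 is the protein disulfide isomerase that mucin assembly in the endoplasmic reticulum depends on. Its level ran from 9.21 to 9.96 in NPD rats, with a median of 9.64, and from 8.23 to 9.93 in HPD rats, with a median of 9.16. In 5 HPD rats it lay below every NPD rat, and only HPD 1 lay above the NPD mean. The difference was -0.63 (SE 0.24, n = 7 per diet), a signal 1.55-fold lower, with a 95% confidence interval of -1.14 to -0.12. The exact two-sided permutation p was 0.0303, and 0.0131 within slides, with a limma adjusted p of 0.417. It was -0.32 on slide 1, which held HPD 1, and -0.76 on slide 2. Without HPD 1 the difference was -0.79 (SE 0.21, limma adjusted p = 0.113).

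Galnt12, a Golgi enzyme that adds the first sugar of mucin-type O-glycans, had the smallest difference. It ran from 6.28 to 6.80 in NPD rats (median 6.42) and from 6.21 to 6.71 in HPD rats (median 6.64). The difference was -0.01 with a 95% confidence interval of -0.29 to 0.27 (limma adjusted p = 0.967, exact permutation p = 0.925), and its sign turned when single arrays were left out. In the deposited table it was -0.16, where Retnlb had the smallest difference (0.064).

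**Figure D2:**
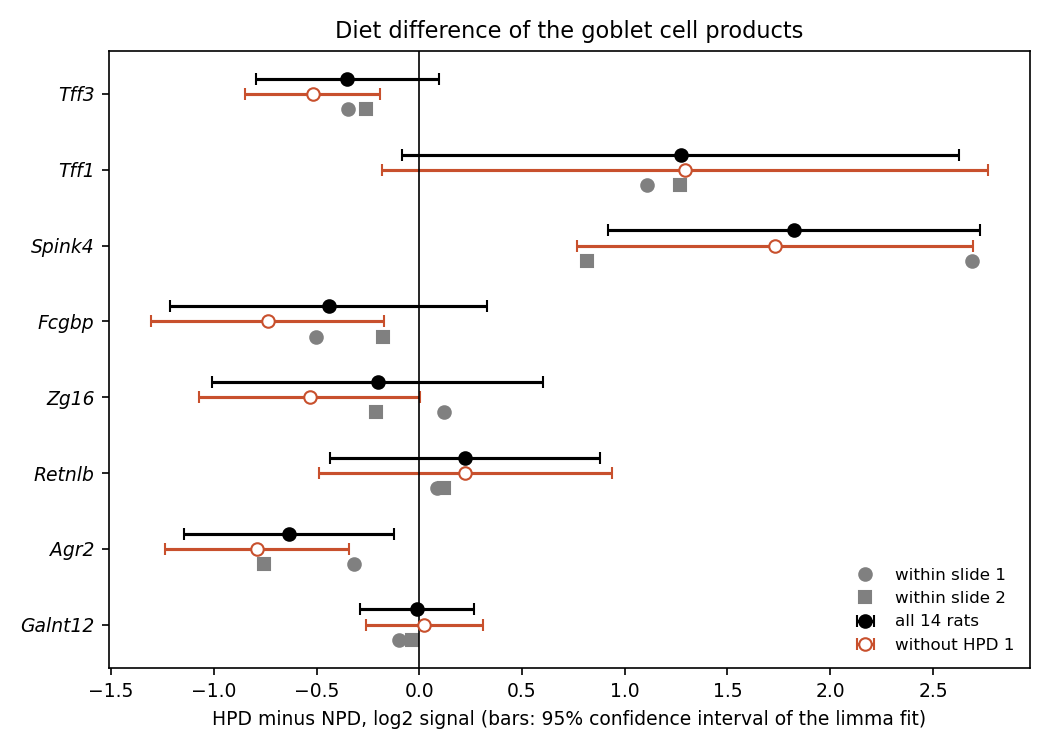
Difference between the diets for each goblet cell product, HPD minus NPD in log2 signal, for all 14 rats (black) and without HPD 1 (open red), with 95% confidence intervals of the limma fit, and the difference of means within slide 1 (grey circle) and slide 2 (grey square). Intervals of Spink4 and Agr2 exclude 0 with and without HPD 1, those of Tff3 and Fcgbp only without it, and the slides differ most for Spink4 (2.69 and 0.82).

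The slides differed for several of the genes. With diet in the fit, 4 of the 8 genes changed between slides at a limma adjusted p below 0.1, as did 40.1% of all probes. Galnt12 was higher on slide 2 by 0.39 (limma adjusted p = 0.00185), and the slides did not overlap: 6.21 to 6.42 on slide 1 and 6.59 to 6.80 on slide 2. Retnlb was higher on slide 2 by 0.84 (limma adjusted p = 0.0129). Zg16 and Agr2 were lower on slide 2, by differences of -1.10 and -0.67 (limma adjusted p = 0.00664 and 0.00878). With slide as a block, the diet difference of Spink4 was 1.75 and that of Agr2 was -0.54, both with a limma adjusted p of 0.207.

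Most goblet cell products were among the more variable transcripts between rats of the same diet, with slide differences left in the spread. The within-diet SD was 1.32 for Tff1, 0.87 for Spink4, 0.77 for Zg16 and 0.74 for Fcgbp, beside a median of 0.29 over the 17432 probes well above background on all arrays. Of those probes, 99.7% had a smaller SD than Tff1, 98.3% than Spink4, 97.4% than Zg16 and 96.9% than Fcgbp. Retnlb, Agr2 and Tff3 stood at 94.4%, 85.9% and 77.6%. Galnt12 was the exception, with an SD of 0.22 that only 25.1% of the probes fell below. The SDs include differences between slides (slide 2 minus slide 1), such as -1.10 for Zg16 and 0.84 for Retnlb. They also include HPD 1. Without it the SD of the HPD rats went from 0.95 to 0.42 for Zg16 and from 0.83 to 0.29 for Fcgbp, while that of Tff1 went from 1.57 to 1.72.

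Whether the products varied together between rats was examined over the 14 rats after each diet mean was removed, in 28 pairs, with p-values from 100000 permutations within diet and Benjamini-Hochberg adjustment over the pairs. Of these, 7 pairs passed an adjusted permutation p of 0.05. Agr2 and Zg16 had the highest correlation (r = 0.90, rho = 0.86, permutation p = 2e-05, adjusted 0.00056), and it was 0.81 without the 2 rats farthest from the Agr2 median. The same pair stood at 0.86 within slide 1 and 0.90 within slide 2. Tff3 and Fcgbp followed (r = 0.89, rho = 0.80, permutation p = 8e-05, adjusted 0.00112), with 0.76 after leaving out the 2 rats farthest in Tff3, 0.94 within slide 1 and 0.60 within slide 2. Both pairs kept an adjusted permutation p below 0.05 when the mean of each diet on each slide was removed (r = 0.75 and 0.87, adjusted 0.0462 for both) and when HPD 1 was left out (r = 0.85 and 0.74).

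A second group of positive pairs joined Retnlb, Tff1 and Spink4. Retnlb and Tff1 correlated at 0.68 (rho = 0.71, permutation p = 0.0117, adjusted 0.0470), 0.74 without the 2 rats farthest in Retnlb, 0.54 within slide 1 and 0.89 within slide 2. Spink4 and Tff1 correlated at 0.65 (rho = 0.70, permutation p = 0.007, adjusted 0.0385), 0.69 without the 2 rats farthest in Spink4, 0.76 within slide 1 and 0.88 within slide 2. With slide means removed the adjusted permutation p was 0.0311 for Retnlb with Tff1 and 0.0700 for Spink4 with Tff1. Without HPD 1 the order was the reverse, with adjusted permutation p of 0.0618 and 0.0326. Spink4 and Agr2, which differed most clearly between the diets and in opposite directions, had an r of -0.10 (rho = -0.12, permutation p = 0.706, adjusted 0.831) between rats of the same diet.

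Of the pairs with Galnt12, the positive one held within slides and the negative ones did not. Retnlb and Galnt12 correlated at 0.84 (rho = 0.85, permutation p = 0.00055, adjusted 0.00513), 0.77 without the 2 rats farthest in Retnlb, and the correlation was 0.67 within slide 1 and 0.84 within slide 2. With slide means removed it was 0.77 (adjusted permutation p = 0.0311). Zg16 and Galnt12 correlated at -0.73 (rho = -0.69, permutation p = 0.00116, adjusted 0.00812) and Agr2 and Galnt12 at -0.72 (rho = -0.61, permutation p = 0.00825, adjusted 0.0385). Without the 2 farthest rats these were -0.80 and -0.67. Neither negative relation held within slides: Zg16 and Galnt12 had an r of 0.12 on slide 1 and -0.06 on slide 2, and Agr2 and Galnt12 had 0.53 and -0.05. Ranked by Spearman's rho, Agr2 with Galnt12 no longer passed (adjusted permutation p = 0.0898), while Spink4 with Retnlb did (r = 0.57, rho = 0.71, permutation p = 0.00828, adjusted 0.0334).

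**Figure D3:**
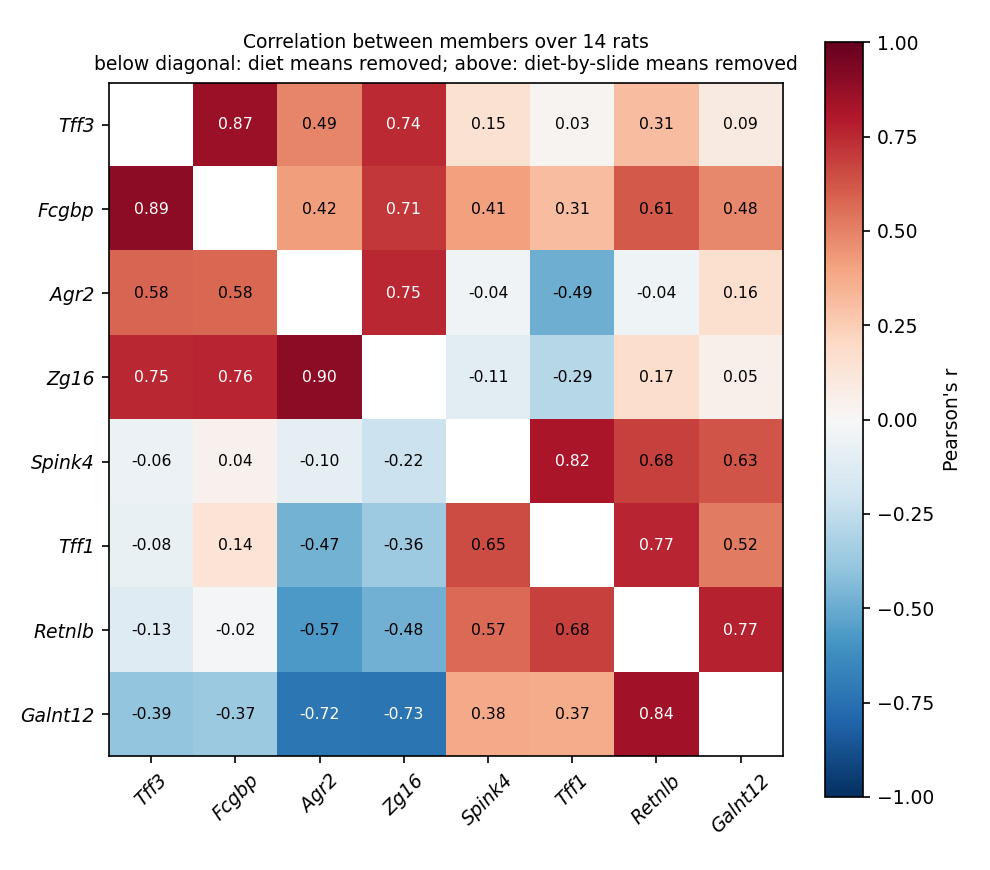
Pearson's r between goblet cell products over 14 rats, with diet means removed below the diagonal and the means of each diet on each slide removed above it. Agr2 with Zg16 and Tff3 with Fcgbp are positive on both sides of the diagonal (0.90 and 0.75, 0.89 and 0.87), whereas Galnt12 with Agr2 and Zg16 is negative only below it (-0.72 and -0.73, against 0.16 and 0.05).

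Other goblet cell genes were set beside these products in 3 lists with 32 genes, all 32 of them on the array. None passed an adjusted limma p below 0.1 (0.056% of all probes), 3 were higher and 2 lower at an unadjusted p under 0.05, and the median difference was 0.02, beside 5.86% of all probes higher, 5.55% lower and a median of 0.11 over all probes. Among the 12 secreted and granule proteins, 8 were higher and 4 lower in the mean, beside 64.2% of all probes that were higher. Muc2, the gel-forming mucin of the colon, differed by 0.01 at the brightest of its 3 probes (95% confidence interval -0.46 to 0.49, limma adjusted p = 0.980). No Muc2 probe passed the limma threshold, and the differences of the other probes are not given here. The study itself reported Muc2 as higher in the HPD, at p below 0.05 in a t test. Clca1, a metalloprotease that processes mucus, ran from 10.64 to 11.40 in NPD rats (median 10.96) and from 9.83 to 11.83 in HPD rats (median 10.32). The level was below every NPD rat in 6 of 7 HPD rats, and HPD 1, at 11.83, was above all of them, as for Tff3, Fcgbp and Zg16. The Clca1 difference was -0.56 (SE 0.25, limma adjusted p = 0.429, exact permutation p = 0.0571). Without HPD 1 it was -0.79 with a limma adjusted p of 0.0801, past the threshold, as 0.497% of all probes were. Clca1 is also in the goblet marker sum by which HPD 1 stood apart. Leaving that rat out lowers the Clca1 mean of the HPD rats by construction, so this pass is no separate evidence.

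Agr3, a relative of Agr2, and Guca2a, which encodes guanylin, were higher by 0.30 and 0.31, with limma adjusted p of 0.430 and 0.425 and exact permutation p of 0.0390 and 0.0280. The mean of Agr3 thus lay in the other direction from that of Agr2. Of the 10 transcription factors of the goblet and secretory lineage, 8 were higher and 2 lower in the mean, and 0 had an unadjusted limma p under 0.05. Atoh1, which commits cells to the secretory lineage, differed by 0.01 (95% confidence interval -0.24 to 0.26). Spdef, which drives goblet cell maturation, differed by 0.40 (95% confidence interval -0.05 to 0.86, limma adjusted p = 0.459). Of the 10 exocytosis genes, 6 were lower and 4 higher. Rab3d, a small GTPase of secretory granules, was the only one of them with an unadjusted limma p under 0.05 (0.0234): it ran from 4.30 to 4.85 in NPD rats (median 4.55) and from 3.77 to 4.75 in HPD rats (median 4.09), a difference of -0.38 (SE 0.15, limma adjusted p = 0.417, exact permutation p = 0.0245). By the exact permutation test Stxbp2, a syntaxin-binding protein, had a lower p (0.0122), with a difference of -0.21 (SE 0.10, limma adjusted p = 0.441) and 7 of 7 HPD rats below the NPD mean. Vamp8 differed by -0.27 (SE 0.13, limma adjusted p = 0.441, exact permutation p = 0.0390).

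**Figure D4:**
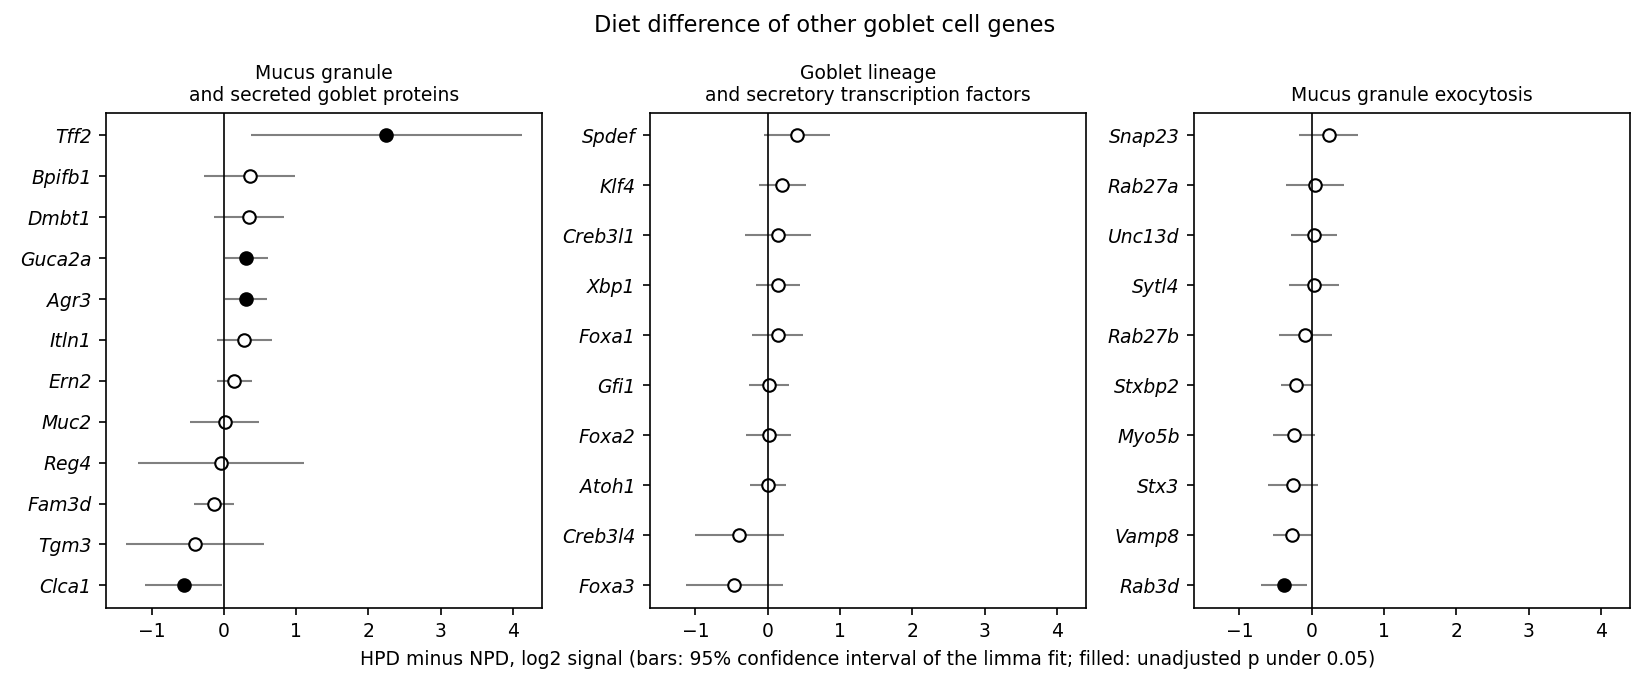
Difference between the diets, HPD minus NPD in log2 signal with 95% confidence intervals of the limma fit, for 32 other goblet cell genes in 3 lists, each by its brightest probe (7 rats per diet). Filled points have an unadjusted p under 0.05: Tff2 (2.25), Agr3 and Guca2a are higher, Clca1 (-0.56) and Rab3d (-0.38) are lower, and Muc2 and Atoh1 lie at 0.01.

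The transcripts most like Spink4 between rats of the same diet were sought among 15288 genes well above background on all arrays. The 5 highest correlations over the 14 rats belonged to probe A_64_P008933 (r = 0.91), probe A_64_P075221 (0.88), transcript ENSRNOT00000036109 (0.87), transcript ENSRNOT00000030597 (0.83) and LOC681193 (0.83). They are the highest of many and carry no test. With slide means removed they were 0.91, 0.87, 0.82, 0.81 and 0.83. None of the 5 differed between the diets as Spink4 did: their differences lay between -0.054 and -0.018, with limma adjusted p of 0.841 to 0.954.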

How the data were processed

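Per the labels, RNA was labelled with Cy3 and the scans were read with Agilent Feature Extraction 10.7.3.1, which gave the deposited intensity of each spot, already background-subtracted (62976 spots, 58717 of them not controls). The authors also deposited a table of log2 values by gene, centred by array (array medians from -1.29 to -1.10), used as an alternative. The methods describe log2 values centred per array, spots of a probe averaged and a limma fit. The intensity column and the centring statistic are not given in the sources used here. Outlier spots were left out, log2 intensities of a probe's spots were averaged, and each array was centred on its median probe. The diets were compared in a linear model of limma 3.58.1 (R 4.3.3) with empirical Bayes moderation, adjusted over all probes by Benjamini-Hochberg, with a threshold of 0.1. The precision rests on 7 rats per diet, 1 array each. Without slide as a block, p-values therefore rest on a spread in which rats, arrays and slides are mixed. Exact permutation tests used all 3432 splits, or 1225 within slides (smallest p over all splits 0.000583), without adjustment. They were run on the 8 members and on the other goblet cell and marker genes named. Correlations were computed with numpy in Python. The brightest probe stood for a gene with several. The fit was tested on simulated data.

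The members, the lists of goblet cell and marker genes and the tests were chosen with earlier results of these data known. All member probes are named. Of the other goblet cell genes, values are given for those with an unadjusted limma p under 0.05 and for Muc2, Clca1, Atoh1 and Spdef, and for likeness to Spink4 the 5 genes with the highest r. Stxbp2 and Vamp8 were added for an exact permutation p under 0.05. Alternatives were other signal columns, centrings and normalizations, normexp with an offset of 50, a filter on dim probes, slide or replicate number as a block, the deposited table, other thresholds and tests, and leaving out each array. Replicate numbers were not taken to pair the rats, since the labels give no pairing. Deviations of same-numbered rats from their diet means correlated at 0.14 to 0.67 in 6 of 7 pairs. The remaining pair, the one split over the slides, had -0.16. Slide means were not removed, so these correlations cannot tell a pairing from a shared slide.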

Additional observations from a re-analysis of the deposited data

Results flagged for a closer look

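In the HPD group 1 rat, HPD 1, lay far above the other 6 rats for 3 of the 8 goblet cell products, by Dixon's test at its 95% critical value for 7 samples. The log2 level of HPD 1 was 10.6 for Tff3, where the next HPD rat was at 9.69. It was 9.1 for Fcgbp, where the next was at 7.51, and 10.3 for Zg16, where the next was at 8.37. Of 16 groups tested 3 were flagged, all through this rat, and chance flags about 1 group in 20; these groups are the same rats, so the flags are not independent. The same rat had the highest summed goblet markers (9730 times the array median) and, among HPD rats, the highest Clca1 and Agr2. Its Spink4 level of 6.94 lay among those of the other HPD rats.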

How the results depend on the processing

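Over the reported fit and 27 alternatives each, the differences of Tff3 (-0.52 to -0.25), Fcgbp (-0.74 to -0.31), Zg16 (-0.53 to -0.045), Tff1 (0.85 to 1.66), Spink4 (1.57 to 2.03) and Agr2 (-0.79 to -0.51) kept their direction, and the first 4 stayed short of a limma adjusted p of 0.1 in all of them. Spink4 and Agr2 passed it in 3: with normexp (1.63 and -0.78; limma adjusted p = 0.0838 and 0.0897), with the deposited table and slide as a block (1.61 and -0.66; 0.0486 and 0.0580), and without HPD 1 with slide as a block (1.57 and -0.66; 0.0882 and 0.0577). The last 2 settings were added after seeing the data. So 2 members were called in each of these 3 (16.9%, 10.5% and 5.4% of all probes in that order), and 2 by the methods' t-test without adjustment (11.4% of all probes), 0 after Benjamini-Hochberg. Retnlb turned to -0.079 with quantile normalization, -0.019 with the deposited table and slide as a block, and -0.00081 without HPD 1 with slide as a block. Galnt12 turned to 0.053 when the median was taken over spots, a setting added after seeing the data, and lay between -0.051 and 0.035 when single arrays were left out; it was -0.16 with normexp and with the deposited table, and -0.19 with that table and slide as a block (limma adjusted p = 0.118). Of the 32 other goblet cell genes, 5 were called with normexp, as were 16.9% of all probes (Clca1, Rab3d, Vamp8, Stxbp2 and Myo5b, all lower). With the deposited table and slide as a block 4 were called (10.5% of all probes), and without HPD 1 with slide as a block 3 were (5.4% of all probes). When single arrays were left out 0 or 1 were called, the 1 being Clca1 without HPD 1 (0.497% of all probes). The cause was not tested. Rats shared replicate numbers but not a stated pairing: with a replicate block 0 members and 0 of the other goblet genes were called, 8 probes in all against 17 without it, and the limma adjusted p of Spink4 and Agr2 was 0.178; 3 of 7 HPD arrays correlated best with their own number. Called probes in all numbered 27 with slide as a block and 151 without HPD 1.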
